A study of Mus musculus with 12 samples.

Results

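Mitosis and G2/M genes, the genes whose products carry a cell from the end of DNA replication through chromosome segregation to division, were followed in 12 SVR xenograft tumors. The group comprised 39 named genes, chosen by gene name from the 54232 genes of the count table, and 37 of them had enough counts to be tested. SVR is a mouse angiosarcoma line made from endothelial cells with an oncogenic H-ras, and each tumor grew under the skin of a nude mouse, although the labels name the strain C57BL/6. After the tumors had established, daily gavage gave 3 mice vehicle (control), 3 mice trametinib at 1 mg/kg, 3 mice cediranib at 3 mg/kg and 3 mice both drugs at these doses (combination). Trametinib inhibits MEK, the kinase upstream of ERK in the MAPK pathway, and cediranib inhibits the VEGF receptors. By the protocol in the labels treatment went on until a tumor ulcerated or passed a size limit, but the study also had an experiment with a common harvest time, and no source used here ties these tumors to either or gives the time on treatment of each. SVR is 1 line, so the results describe that line. RNA came from the whole tumor, in which the tumor cells, the vessels and the skin were all of mouse origin, so fewer dividing cells and less RNA of a gene per dividing cell cannot be told apart. The comparison asks whether transcripts of the division machinery differed after inhibition of MEK, of the VEGF receptors or of both.

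Cells that enter mitosis need Cdk1, a kinase that is active only when bound to a cyclin, first cyclin A and then cyclin B. Active Cdk1, the Polo-like kinase Plk1 and the Aurora kinases condense the chromosomes and build the spindle, kinetochore proteins attach the chromosomes to it, and the spindle checkpoint holds the cell until all are attached. The anaphase-promoting complex then marks cyclin B and securin for destruction, the chromosomes part, and the central spindle directs cytokinesis. Most of these genes are transcribed in late S and G2 phase and silent in resting cells, which is why their summed level is used in tumors as a measure of how many cells cycle. Their promoters are bound by the DREAM complex in resting cells and by MYBL2 and FOXM1 in cycling cells, and many carry a cell cycle genes homology region (CHR) and CCAAT boxes.

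These promoter letters were looked up in the members, because the motifs are textbook elements of genes expressed in G2 and mitosis. Of the 39 genes, 32 had a promoter window in the RefSeq set of build GRCm38.p6, from 250 bases before to 50 bases after the start. The CHR letters TTTGAA, on either strand, were in 71.9% of these 32 windows and in 18.2% of the windows of all 27025 genes. The letters CCAAT, on either strand, were in 71.9% and 38.0%, and both motifs were in 62.5% and 7.2%. Among DNA replication genes, which peak earlier in the cycle, 17.6% of the windows held TTTGAA, close to the share of all genes. The 150 bases before the start follow for 7 genes, 5′ to 3′ on the gene's strand, with the letters of the CHR and of the CCAAT box, on either strand, in capitals. Cdk1, Mki67, Top2a, Kif11 and Cdc20 are shown as genes with both motifs in this stretch, Ccnb2 as the gene that passed the test below and holds CCAAT alone here, and Nusap1 as the gene with the largest fold change and neither motif.
Cdk1 (chr10:69352913-69353062, minus strand): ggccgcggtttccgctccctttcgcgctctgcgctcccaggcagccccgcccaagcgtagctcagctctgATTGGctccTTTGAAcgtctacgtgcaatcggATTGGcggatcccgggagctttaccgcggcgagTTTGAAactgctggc
Mki67 (chr7:135716380-135716529, minus strand): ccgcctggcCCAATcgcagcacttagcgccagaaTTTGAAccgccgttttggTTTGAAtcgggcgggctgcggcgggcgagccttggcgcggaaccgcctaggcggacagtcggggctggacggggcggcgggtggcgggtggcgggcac
Top2a (chr11:99024190-99024339, minus strand): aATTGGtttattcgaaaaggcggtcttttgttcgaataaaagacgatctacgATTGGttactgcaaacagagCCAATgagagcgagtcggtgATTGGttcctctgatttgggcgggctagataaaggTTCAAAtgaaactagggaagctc
Kif11 (chr19:37376232-37376381, plus strand): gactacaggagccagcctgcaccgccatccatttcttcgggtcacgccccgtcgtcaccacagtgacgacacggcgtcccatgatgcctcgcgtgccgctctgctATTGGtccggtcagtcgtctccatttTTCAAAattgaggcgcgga
Cdc20 (chr4:118437344-118437493, minus strand): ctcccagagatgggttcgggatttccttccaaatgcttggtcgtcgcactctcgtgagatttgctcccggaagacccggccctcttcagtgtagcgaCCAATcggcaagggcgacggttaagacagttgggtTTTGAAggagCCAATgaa
Ccnb2 (chr9:70421555-70421704, minus strand): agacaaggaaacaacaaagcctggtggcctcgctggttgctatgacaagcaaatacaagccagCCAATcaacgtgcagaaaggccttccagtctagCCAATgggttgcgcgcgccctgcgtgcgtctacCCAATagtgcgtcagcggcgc
Nusap1 (chr2:119618148-119618297, plus strand): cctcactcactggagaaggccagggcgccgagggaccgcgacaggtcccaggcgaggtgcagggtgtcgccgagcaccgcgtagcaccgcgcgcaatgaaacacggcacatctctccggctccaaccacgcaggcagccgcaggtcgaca
A match describes the letters of the window and was not tested as a binding site.

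The libraries held 9478865 to 11666094 counts, and the members took 0.236% to 0.326% of them. Counts were made with a capture kit whose probe panel was designed on human exons, so a level depends on the probes for the gene as well as on its transcripts. Levels are given as CPM, the counts relative to library size, after scaling of the libraries with TMM factors, and a count of 3, the limit that a count of 0 allows, corresponded to 0.251 to 0.349 CPM. This limit covers counting error only. Top2a, the topoisomerase that untangles sister chromatids, supplied 41.1% to 48.0% of the members' counts in each tumor. Per kilobase of gene length it stood at 131 CPM in control tumors, ahead of Ccna2 at 43.6, Ube2c at 42.9 and Plk1 at 34.0 CPM per kilobase. The mean of Ube2c was raised by control 2, at 184 CPM beside 73.2 in control 1 and 77.1 in control 3. Its overlap with a muscle gene is described below. Pttg1, which encodes securin, and Cdc25c, a phosphatase that activates Cdk1, did not pass the filter on low counts. Pttg1 had 0 to 6 counts in a library and exceeded 3 counts in 1 of 12, and Cdc25c had 0 to 6 counts and exceeded 3 in 6 of 12. Each of the 37 others exceeded 3 counts in every library, and the fewest were those of Nusap1, with 4 to 27 counts a library. Over the 12 tumors the coefficient of variation of a tested member's CPM ran from 8.32% for Tpx2 to 58.7% for Ube2c.

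The mean log2 CPM of the 37 genes stayed in a narrow band over the 12 tumors, whereas that of MAPK output genes did not. The members' mean log2 CPM was 4.55, 4.74 and 4.38 in control tumors, 4.90, 4.83 and 4.69 in trametinib treated, 4.56, 4.58 and 4.55 in cediranib treated and 4.54, 4.41 and 4.41 in combination treated tumors. The trametinib treated tumors were the highest group but overlapped control, whose second tumor lay above the lowest trametinib treated tumor, and they lay above all cediranib and combination treated tumors. In the same tumors the mean log2 CPM of 17 MAPK output genes (phosphatases, Sprouty and Spred inhibitors, ETS factors and immediate targets of ERK) was 5.39 to 5.45 in control, 2.81 to 3.42 in trametinib treated, 5.36 to 5.48 in cediranib treated and 4.002 to 4.09 in combination treated tumors. A member's own median over the 12 tumors was exceeded by 34, 28 and 22 of the 37 genes in the trametinib treated tumors, by 19, 32 and 8 in control, by 16, 19 and 14 in cediranib treated and by 14, 6 and 10 in combination treated tumors. Control 2 was high and control 3 low, so the control group alone spanned 4.38 to 4.74, while all cediranib and combination treated tumors lay within that span. By group mean of log2 CPM, trametinib was the highest of the 4 groups for 26 of the 37 genes and for 27.3% of all genes tested, and combination was the lowest for 18 of them and for 29.2% of all genes tested.

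**Figure D1:**
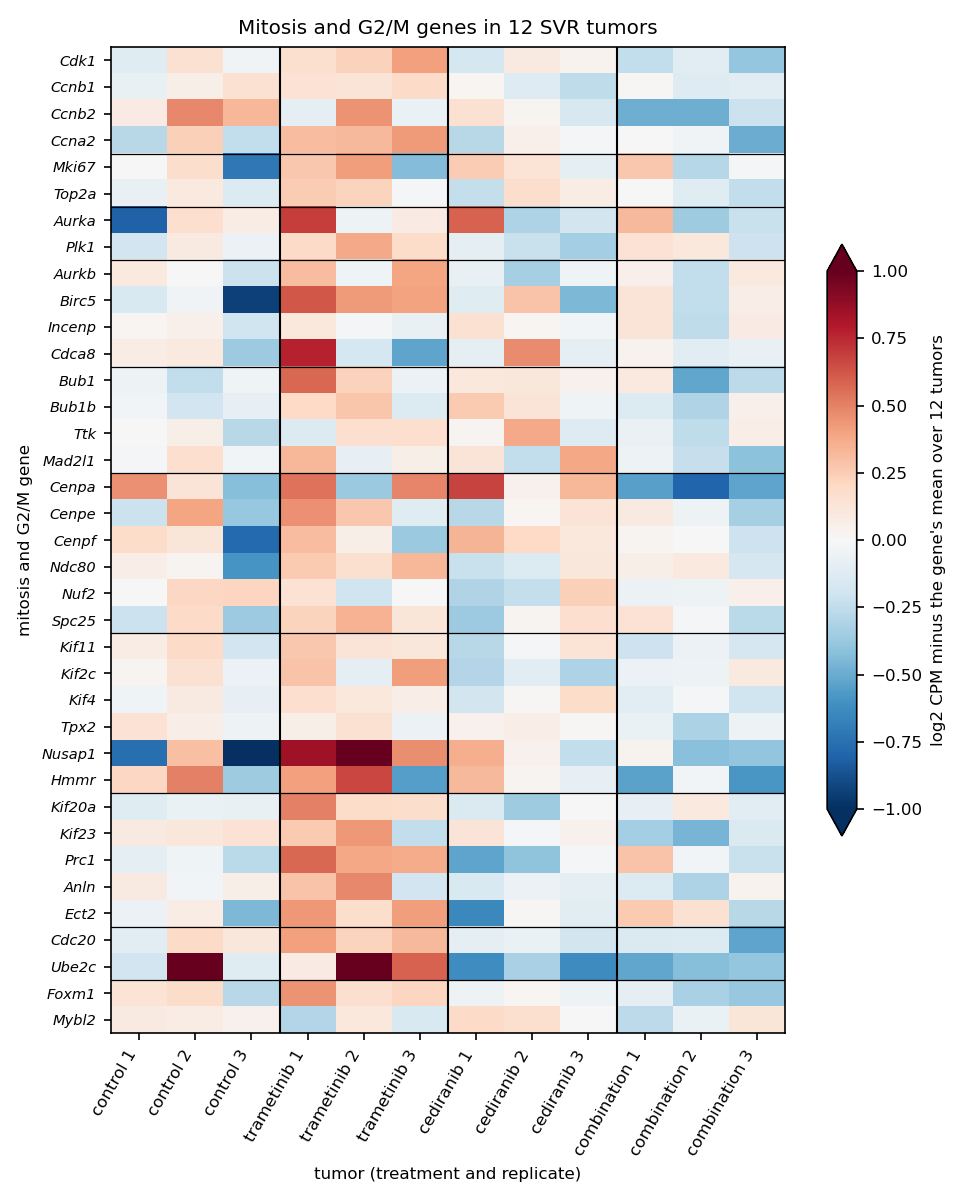
Log2 CPM of each of the 37 tested genes (rows, grouped by role) in each of 12 tumors (columns), minus the gene's mean over the 12 tumors; red is above and blue below that mean, and colors end at 1 log2 unit in each direction. Trametinib 1 is red in most rows, control 3 and the combination treated tumors are mostly blue, and Nusap1 and Ube2c have the widest swings.

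**Figure D2:**
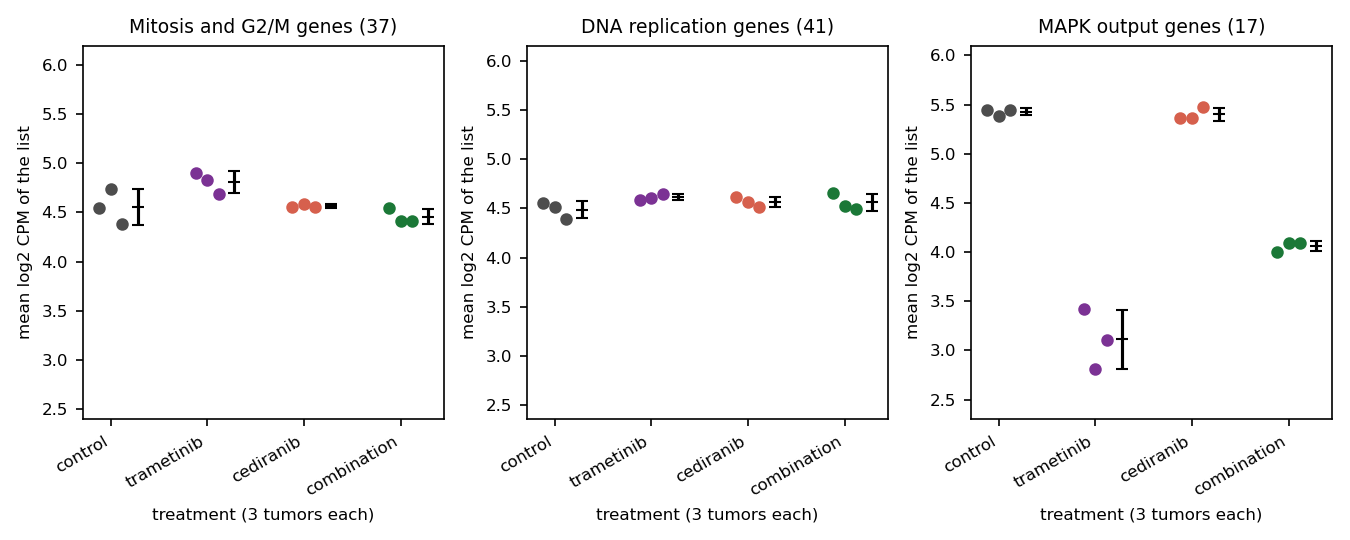
Mean log2 CPM over each of 3 gene lists, 1 point a tumor, with the group mean and SD (n = 3) at the right of each group; the 3 panels span the same range of log2 units. Mitosis and DNA replication genes stay within a narrow band, from 4.38 to 4.90 for mitosis genes, whereas MAPK output genes run from 2.81 to 5.48.

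In trametinib treated tumors compared to control, most members had higher transcript levels, though none passed the test: 33 of 37 genes had log2 fold changes above 0 and 4 below, with a median of 0.22 and a range of -0.19 to 1.40, beside a median of 0.0057 over all genes tested. The highest values were those of Nusap1, a microtubule binding protein of the spindle, at 1.40 (SE 0.47), Birc5 at 0.87 (SE 0.32) and Prc1, which bundles the microtubules of the central spindle, at 0.58 (SE 0.16). By the quasi-likelihood test of edgeR with Benjamini-Hochberg adjustment over 12897 genes, 0 of the 37 genes passed an FDR of 0.05, which 6.12% of all genes tested did, and 0 were called, meaning that they also changed by 1.5 or more on the log2 scale, as 2.4% of all genes were. The smallest FDR was 0.0548, for Prc1. Before adjustment, at a p under 0.05, there were 8 genes, all higher (Prc1, Nusap1, Kif20a, Birc5, Ccna2, Ect2, Plk1 and Ndc80), or 21.6% of the members, beside 10.2% of all genes. Among the 26 members whose exons overlap no other gene's, there were 3. For 10 genes all 3 trametinib treated tumors lay above all 3 control tumors, beside 12.9% of all genes, and for 0 genes below. With DESeq2 1 gene passed (Prc1, FDR 0.0142), beside 1309 of all 12897 genes, and with limma-voom 0 did, beside 735. The intervals bounded what a decrease could have been: the 95% interval lay within 1 log2 unit of 0 in each direction for 31 of 37 genes (83.8%), beside 57.1% of all genes tested. The number at an unadjusted p under 0.05 rested on single tumors, with 3 members without control 3, 4 without trametinib 1, 5 without control 1 and 12 without control 2, and the median was 0.15 without control 3. Control 2 also decided 1 call, since without it Nusap1 passed with a log2 fold change of 2.10 and an FDR of 0.0334 (edgeR, Benjamini-Hochberg).

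In cediranib treated tumors compared to control, members stood on either side of 0, with 18 log2 fold changes above and 19 below, a median of -0.0024 and a range of -0.93 to 0.59. By edgeR, 0 members passed an FDR of 0.05, as did 0% of all genes, and 0 were called, as were 0%. DESeq2 and limma-voom also gave 0 members, beside 12 and 0 of all 12897 genes. With no adjustment and a p under 0.05 there was 1 gene, Ube2c, lower, beside 1.76% of all genes. Values of the 2 groups did not overlap for 1 gene that was higher, the checkpoint kinase Bub1, beside 4.31% of all genes, and for 3 that were lower (Kif2c, Anln and Ube2c), beside 3.45%. Without cediranib 1 no member had a p under 0.05, and without cediranib 3 there were 2. The median lay between -0.067 and 0.075 with 1 tumor left out. The 95% interval lay within 1 log2 unit of 0 for 33 of 37 genes, beside 65.6% of all genes.

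In combination treated tumors compared to control, 1 member fell, the B-type cyclin Ccnb2, with a log2 fold change of -0.70 (SE 0.19, 95% interval -1.11 to -0.30) and an FDR of 0.0362 (edgeR, Benjamini-Hochberg). That is 1 of 37 members past the FDR, beside 9.98% of all genes, and 0 of 37 were called, beside 3.61%. DESeq2 and limma-voom also gave 1, Ccnb2, beside 1889 and 1141 of all 12897 genes. It lay lower in all 3 combination treated tumors than in any control tumor. This call was lost, with the direction kept, when control 2, control 3 or any of the combination treated tumors was left out, at FDRs of 0.0501 to 0.120, and with library totals in place of TMM factors, at an FDR of 0.0612. Over the 37 members 14 log2 fold changes lay above 0 and 23 below, with a median of -0.078 and a range of -0.85 to 0.34. Before adjustment, at a p under 0.05, there were 4 genes, all lower (Ccnb2, Kif23, Cdc20 and Ube2c), beside 13.8% of all genes, and all 3 combination treated tumors lay below all 3 control tumors for 6 genes, beside 15.7%. These were 10.8% and 16.2% of the members. Without control 2 or any of the combination treated tumors 2 members had a p under 0.05, and with library totals 1 did. The median was -0.012 without control 2, -0.13 without control 3, -0.14 without combination 1 and 0.048 with library totals, where 24 log2 fold changes lay above 0 and 13 below. The 95% interval lay within 1 log2 unit of 0 for 30 of 37 genes, beside 54.4% of all genes.

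In combination treated compared to trametinib treated tumors, 36 of 37 members had log2 fold changes below 0, with a median of -0.31 and a range of -1.25 to 0.044, beside a median of -0.010 over all genes. The exception was Mybl2. By edgeR, 0 members passed an FDR of 0.05, beside 0.969% of all genes, and 0 were called, beside 0.675%. The smallest FDR was 0.0631, for Cdc20, the activator of the anaphase-promoting complex. With no adjustment and a p under 0.05 there were 13 members, all lower, or 35.1%, beside 8.69% of all genes. For 16 members, or 43.2%, all 3 combination treated tumors lay below all 3 trametinib treated tumors, beside 11.8% of all genes. The number at a p under 0.05 was 7 without trametinib 1, 8 without combination 2 and 7 with library totals. Among the 26 members whose exons overlap no other gene's, it was 6. By DESeq2 4 members passed (Cdk1, Cdc20, Ube2c and Foxm1), all lower, beside 717 of all 12897 genes. By limma-voom 0 members did, beside 23 of all genes. In the same comparison all 17 MAPK output genes had log2 fold changes above 0, with a median of 0.88, and 5 of them rose. This comparison and that of trametinib with control share the 3 trametinib treated tumors, so a high value in those tumors enters both, with opposite sign.

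In combination treated compared to cediranib treated tumors, 12 log2 fold changes lay above 0 and 25 below, with a median of -0.11 and a range of -1.12 to 0.33. With library totals 18 lay above 0 and 19 below, with medians of -0.0019 for the members and 0.12 over all genes. By edgeR 0 members passed an FDR of 0.05, beside 7.68% of all genes, and 0 were called, beside 2.45%. DESeq2 and limma-voom gave 0 as well, beside 1526 and 939 of all 12897 genes. Before adjustment, at a p under 0.05, there were 2 members, Cenpa and Kif23, both lower, beside 11.8% of all genes. This number was 0 without cediranib 1 or combination 2, 1 without combination 1 and 5 without combination 3, and the median was -0.074 without cediranib 2. All 3 combination treated tumors lay above all 3 cediranib treated tumors for 1 member, Kif2c, beside 14.1% of all genes, and below them for 6, beside 14.3%.

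The interaction term compares the effect of cediranib given with trametinib with its effect given alone. Its log2 values lay below 0 for 35 of 37 members, with a median of -0.33 and a range of -1.77 to 0.21, beside a median of -0.0021 over all genes. By edgeR 0 members passed an FDR of 0.05, beside 0% of all genes, and 0 were called, beside 0%, with a smallest FDR of 0.682 among the members. By DESeq2 and limma-voom 0 members passed, beside 37 and 0 of all 12897 genes. With no adjustment and a p under 0.05 there were 6 members, all lower (Nusap1, Cdk1, Cenpa, Foxm1, Ccna2 and Bub1), beside 3.16% of all genes. This number fell to 1 without control 1 or cediranib 3 and with library totals, to 2 without control 3, trametinib 1, cediranib 2 or combination 2, and to 3 without cediranib 1 or combination 3. The 95% interval lay within 1 log2 unit of 0 for 24 of 37 members.

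**Figure D3:**
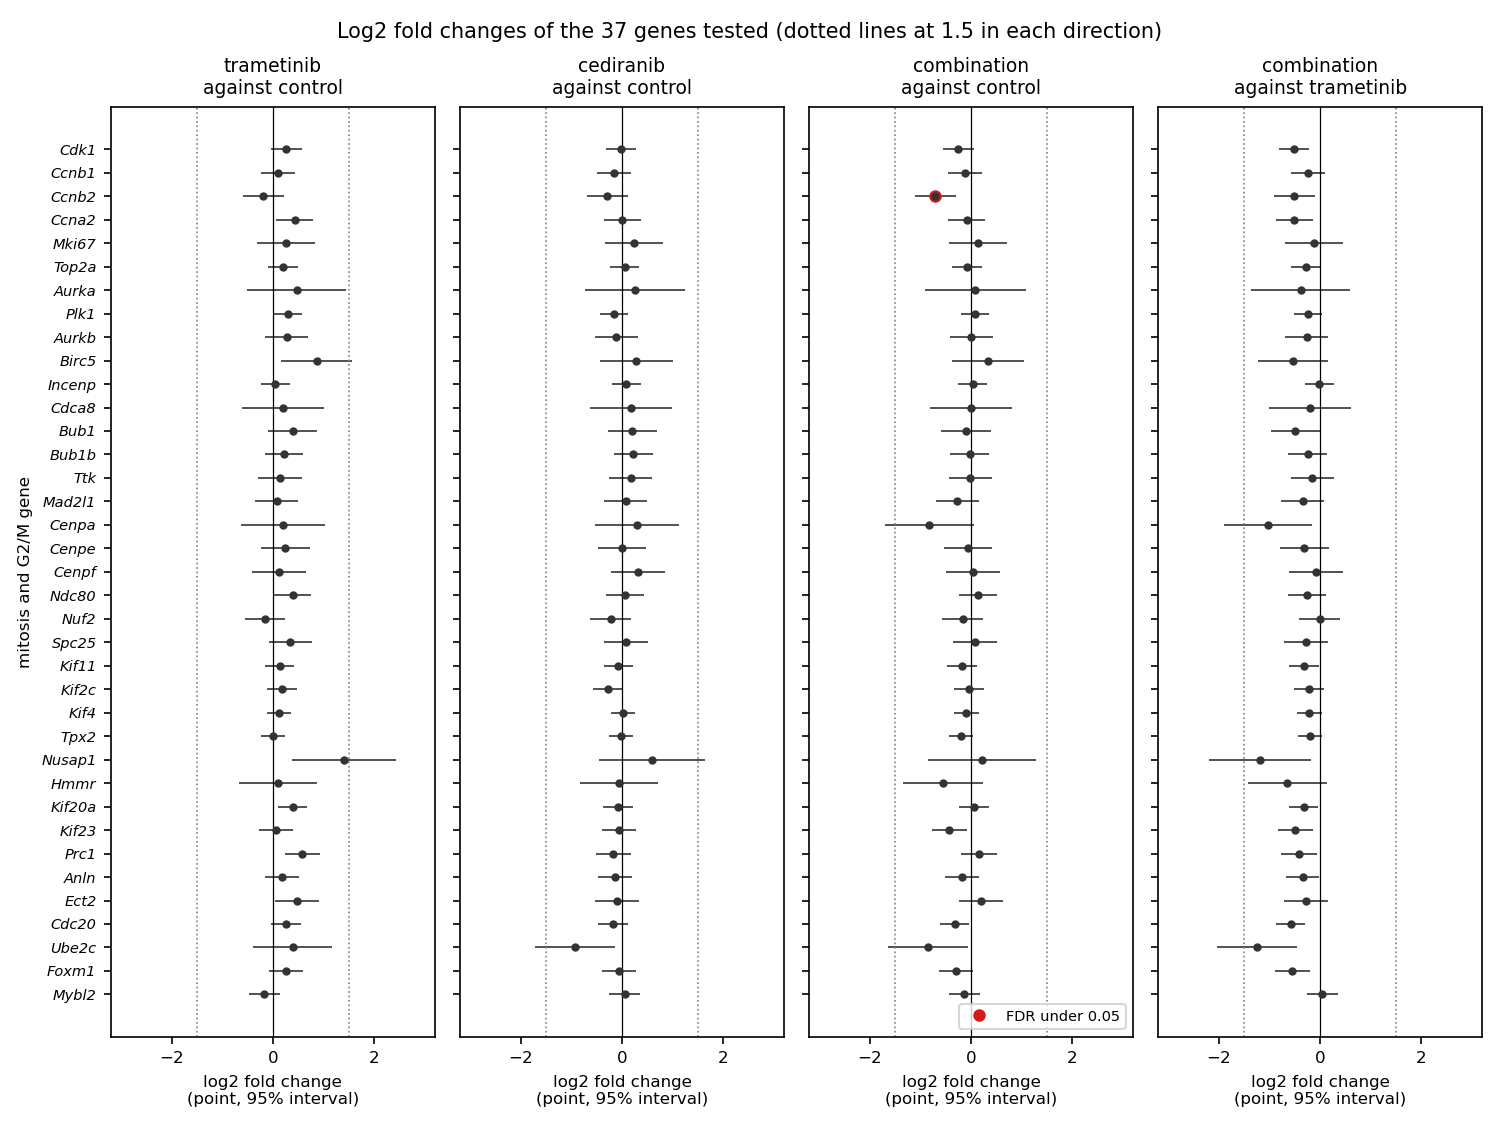
Log2 fold changes with 95% intervals of the 37 tested genes in 4 comparisons; the vertical line marks 0, dotted lines mark 1.5 in each direction, and a red point marks an FDR under 0.05. Trametinib against control has 33 points right of 0 and combination against trametinib 36 left of it, most intervals cross 0, and Ccnb2 in combination against control is the red point.

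Among the cyclins and their kinase, the 4 tested genes were lower in combination than in trametinib treated tumors without overlap, as were 11.8% of all genes. Cdk1, the kinase of mitotic entry, was at 26.1, 31.6 and 27.8 CPM in control, 31.7, 33.3 and 37.8 in trametinib, 25.2, 30.2 and 29.2 in cediranib and 23.9, 26.3 and 21.6 in combination treated tumors. Trametinib 3 was the highest tumor and combination 3 the lowest, and the trametinib treated tumors lay above all others, though only just above control 2. The log2 fold change of Cdk1 was 0.27 for trametinib against control and -0.52 (95% interval -0.82 to -0.21) for combination against trametinib. Ccna2, cyclin A2 of S and G2 phase, was at 155, 221 and 158 CPM in control, 232, 234 and 252 in trametinib, 155, 194 and 186 in cediranib and 187, 183 and 133 in combination treated tumors. The trametinib treated tumors again lay above the other 9 with control 2 next. Its exons overlap those of Exosc9 on the other strand, which had 1108 counts over the 12 libraries beside 23986 for Ccna2. Ccnb1, cyclin B1, was at 9.79, 10.7 and 11.5 CPM in control, 11.4, 11.3 and 11.8 in trametinib, 10.5, 9.46 and 8.61 in cediranib and 10.4, 9.44 and 9.56 in combination treated tumors, a span of 1.37-fold from lowest to highest. The control group overlapped each of the others, with log2 fold changes of 0.11, -0.17 and -0.12 for trametinib, cediranib and combination against control.

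Ccnb2, cyclin B2, was at 19.5, 25.8 and 23.2 CPM in control, 17.2, 25.3 and 17.7 in trametinib, 20.6, 18.8 and 16.5 in cediranib and 13.1, 13.1 and 15.9 in combination treated tumors. The combination treated tumors were the 3 lowest of all 12, below the lowest cediranib treated tumor, while trametinib 2 stood with the controls and trametinib 1 and 3 below them. The log2 fold change of Ccnb2 was -0.19 (95% interval -0.59 to 0.21) for trametinib and -0.30 (-0.70 to 0.11) for cediranib against control, beside 0.27 for Cdk1 and 0.43 for Ccna2 with trametinib. The gene lies at chr9:70407692-70421547 on the minus strand of GRCm38, and none of its exons overlaps another gene's in GENCODE M21.

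The proliferation markers Mki67 and Top2a overlapped between control and each treatment. Mki67, which encodes the Ki-67 antigen of cycling cells, was at 28.8, 32.5 and 17.5 CPM in control, 34.8, 38.4 and 21.3 in trametinib, 34.4, 31.6 and 27.0 in cediranib and 34.7, 23.6 and 28.5 in combination treated tumors. All 4 groups overlapped, with the lowest tumor among the controls and the highest among the trametinib treated. The log2 fold change of Mki67 for combination was 0.14 against control (95% interval -0.43 to 0.71), -0.12 against trametinib (-0.68 to 0.45) and -0.098 against cediranib (-0.66 to 0.47). Top2a was at 1151, 1296 and 1105 CPM in control, 1445, 1421 and 1207 in trametinib, 1027, 1374 and 1278 in cediranib and 1220.3, 1119.6 and 1024 in combination treated tumors. Its 12 values spanned 1.41-fold, and its 95% intervals were -0.37 to 0.21 for combination against control and -0.57 to 0.015 for combination against trametinib. A Top2a decrease of 1 log2 unit lay outside both intervals.

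Of the spindle kinases, Aurka, the Aurora kinase of the spindle poles, was at 0.681, 1.52 and 1.41 CPM in control, 2.27, 1.28 and 1.42 in trametinib, 2.10, 1.04 and 1.15 in cediranib and 1.72, 0.999 and 1.11 in combination treated tumors. At 8 to 25 counts a library its groups overlapped throughout and its interval for combination against control ran from -0.91 to 1.09. Plk1, the Polo-like kinase, was at 67.8, 82.3 and 74.3 CPM in control, 88.5, 101 and 87.9 in trametinib, 72.7, 66.3 and 61.1 in cediranib and 85.5, 83.0 and 67.1 in combination treated tumors. The 3 trametinib treated tumors lay above the others, with a log2 fold change of 0.30 (SE 0.13) against control and -0.23 for combination against trametinib. Exons of Plk1 overlap Gm44985 on the other strand, with 4745 counts beside 9783 for Plk1.

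In the chromosomal passenger complex, which corrects faulty attachments and later guides cytokinesis, Aurkb, its kinase, was at 8.35, 7.80 and 6.67 CPM in control, 9.71, 7.56 and 10.3 in trametinib, 7.39, 6.15 and 7.56 in cediranib and 8.08, 6.54 and 8.35 in combination treated tumors. These values overlapped in every comparison. Birc5, or survivin, was at 2.04, 2.23 and 1.11 CPM in control, 3.63, 3.14 and 3.10 in trametinib, 2.10, 2.84 and 1.63 in cediranib and 2.52, 1.91 and 2.41 in combination treated tumors. The trametinib treated tumors were the 3 highest of all 12 and control 3 the lowest, at 11 to 40 counts a library, and the log2 fold change for trametinib against control was 0.87 (95% interval 0.16 to 1.57). The scaffold Incenp had log2 fold changes of 0.046, 0.089 and 0.033 for trametinib, cediranib and combination against control, with a coefficient of variation of 8.42% over the 12 tumors. For Cdca8, or borealin, they were 0.19, 0.18 and 0.00, at 17 to 44 counts a library.

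Of the spindle checkpoint genes, Bub1, the kinase that recruits the checkpoint to kinetochores, was at 5.71, 4.97 and 5.76 CPM in control, 8.90, 6.98 and 5.69 in trametinib, 6.39, 6.43 and 6.12 in cediranib and 6.36, 4.09 and 4.92 in combination treated tumors. The cediranib treated tumors lay just above control without overlap, by 0.20 on the log2 scale, and combination 2 was the lowest of all. Bub1b, Ttk and Mad2l1, the other parts of the checkpoint, had log2 fold changes of 0.22, 0.14 and 0.076 for trametinib against control and of -0.25, -0.15 and -0.35 for combination against trametinib. All 4 checkpoint genes had 95% intervals within 1 log2 unit of 0 for each drug group against control.

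Among centromere and kinetochore genes, Cenpf, a large protein of the outer kinetochore that appears in G2, was at 19.1, 18.2 and 9.70 CPM in control, 20.8, 17.5 and 12.9 in trametinib, 21.3, 19.2 and 18.0 in cediranib and 17.1, 16.8 and 14.5 in combination treated tumors. Control 3 was the lowest tumor and the groups overlapped, except that the combination treated tumors lay below all cediranib treated tumors. Cenpa, the histone H3 variant that marks the centromere, was at 2.21, 1.72 and 1.11 CPM in control, 2.36, 1.16 and 2.26 in trametinib, 2.60, 1.61 and 2.01 in cediranib and 1.01, 0.817 and 1.02 in combination treated tumors. The combination treated tumors were the 3 lowest of all 12, with log2 fold changes of -0.83 against control, -1.03 against trametinib and -1.12 against cediranib, and adjusted p values of 0.205, 0.203 and 0.110 (edgeR, Benjamini-Hochberg). The motor Cenpe and Ndc80, Nuf2 and Spc25 of the complex that grips microtubules had log2 fold changes of 0.25, 0.39, -0.16 and 0.35 for trametinib against control. Nuf2 was thus the exception in sign to its partners, with a 95% interval of -0.56 to 0.25.

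Of the spindle motors and spindle proteins, Kif11, the kinesin that pushes the spindle poles apart, was at 101, 109 and 83.4 CPM in control, 115, 104 and 103 in trametinib, 78.7, 94.3 and 105 in cediranib and 82.4, 91.3 and 84.9 in combination treated tumors. The combination treated tumors lay below the 3 trametinib treated tumors, with a log2 fold change of -0.32 (SE 0.13), and overlapped control and cediranib. Kif2c, a kinesin that shortens microtubules at kinetochores, was at 51.6, 56.0 and 48.5 CPM in control, 61.6, 47.1 and 67.6 in trametinib, 41.3, 46.6 and 40.9 in cediranib and 48.5, 48.8 and 54.0 in combination treated tumors. The cediranib treated tumors were the 3 lowest of all 12, with a log2 fold change of -0.28 against control (95% interval -0.58 to 0.024), and the combination treated tumors lay between them and control 2. Nusap1 was at 0.681, 1.62 and 0.404 CPM in control, 2.45, 2.91 and 1.84 in trametinib, 1.70, 1.32 and 1.05 in cediranib and 1.31, 0.908 and 0.928 in combination treated tumors. Every trametinib treated tumor lay above all other tumors, with 4 to 27 counts a library over the whole set. Kif4, Tpx2 and Hmmr, a chromosome motor and 2 spindle assembly factors, had log2 fold changes of 0.12, -0.0006 and 0.098 for trametinib against control and -0.093, -0.20 and -0.55 for combination against control. Tpx2 had the lowest coefficient of variation of the tested members, and its 95% interval for trametinib against control was -0.24 to 0.24.

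The central spindle and cytokinesis genes held 3 of the 8 members at an unadjusted p under 0.05 for trametinib against control. Prc1 was at 65.6, 68.0 and 58.2 CPM in control, 104, 91.5 and 90.7 in trametinib, 48.5, 52.9 and 69.3 in cediranib and 85.5, 68.8 and 59.96 in combination treated tumors. Each trametinib treated tumor lay above all other tumors, and cediranib 1 and 2 were the lowest. The Prc1 gene lies at chr7:80294450-80316259 on the plus strand, and 911 bases of its exons overlap Rccd1 on the other strand, which had 474 counts beside 9056 for Prc1. Kif20a, a kinesin of the central spindle, was at 34.7, 36.0 and 35.8 CPM in control, 53.6, 42.9 and 42.7 in trametinib, 34.2, 29.4 and 37.6 in cediranib and 35.7, 40.5 and 34.9 in combination treated tumors. The trametinib treated tumors lay above the rest, but 29.3% of the exon bases of Kif20a overlap those of Cdc23 on the other strand, and Cdc23 had more counts, 7879 beside 4806. Kif23, the kinesin of the centralspindlin complex, was at 106, 108 and 110.4 CPM in control, 119.9, 135 and 84.0 in trametinib, 109, 98.8 and 103 in cediranib and 78.7, 72.2 and 90.5 in combination treated tumors. The combination treated tumors lay below all control and all cediranib treated tumors and overlapped trametinib 3, with a log2 fold change of -0.43 against control and an FDR of 0.103 (edgeR, Benjamini-Hochberg). Ect2, which activates RhoA at the cleavage furrow, and Anln, which organizes the contractile ring, had log2 fold changes of 0.47 and 0.17 for trametinib and 0.19 and -0.17 for combination against control.

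Of the genes of anaphase and mitotic exit, Cdc20 was at 43.3, 53.4 and 50.7 CPM in control, 62.5, 54.7 and 58.7 in trametinib, 44.1, 44.7 and 41.1 in cediranib and 42.4, 42.7 and 32.5 in combination treated tumors. The trametinib treated tumors were the 3 highest of all 12 and combination 3 the lowest, and the log2 fold change was -0.58 (95% interval -0.87 to -0.29) for combination against trametinib. By DESeq2 the FDR of this difference was 0.00466. The gene lies at chr4:118432901-118437352 on the minus strand, and 53 bases of its exons overlap Elovl1 on the other strand. Ube2c, the ubiquitin-conjugating enzyme of the anaphase-promoting complex, was at 73.2, 184 and 77.1 CPM in control, 88.6, 224 and 126 in trametinib, 54.6, 67.0 and 54.2 in cediranib and 58.5, 62.3 and 64.0 in combination treated tumors. Control 2, trametinib 2 and trametinib 3 stood above all the others, and the cediranib and combination treated tumors lay below every control tumor.

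Ube2c lies at chr2:164769898-164778822 on the plus strand, and 592 bases, or 22.8% of its exons, overlap Tnnc2, a troponin of fast skeletal muscle, on the other strand. The counts of the 2 genes cannot be told apart in the shared bases without strand, and no source used here gives the strand setting of the counting. Tnnc2 was at 1.36, 111 and 0.303 CPM in control, 1.91, 155 and 19.5 in trametinib, 0.899, 1.32 and 0.861 in cediranib and 7.68, 0.272 and 2.13 in combination treated tumors. The 3 tumors with the highest Ube2c were those with the highest Tnnc2, and their summed CPM of 9 skeletal muscle genes was 16742 in control 2, 23905 in trametinib 2 and 2061 in trametinib 3, beside 5.66 to 603 in the other tumors. Without control 2 the log2 fold change of Ube2c for cediranib against control was -0.36 instead of -0.93. Over all alternative fits, that for trametinib against control ran from -0.054 to 0.96. It ran from -1.09 to -0.29 for combination against control and from -1.51 to -0.80 for combination against trametinib. The part of muscle RNA in the values of Ube2c was not tested.

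**Figure D4:**
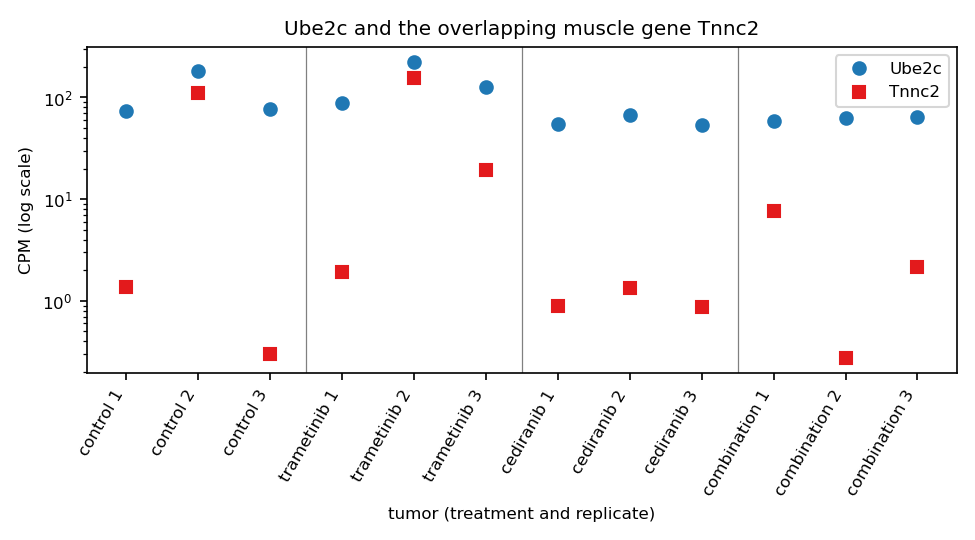
CPM (log axis) of Ube2c, circles, and of the overlapping muscle gene Tnnc2, squares, in each of 12 tumors. Control 2 and trametinib 2 have the highest values of each gene, 184 and 224 CPM for Ube2c and 111 and 155 CPM for Tnnc2, followed by trametinib 3.

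The transcription factors that drive the G2/M genes had unlike patterns by tumor. Foxm1, the forkhead factor of G2, was at 23.6, 24.3 and 17.7 CPM in control, 29.2, 24.1 and 24.9 in trametinib, 20.7, 21.8 and 20.7 in cediranib and 19.997, 17.1 and 16.4 in combination treated tumors. The combination treated tumors lay below all trametinib and all cediranib treated tumors, with log2 fold changes of -0.55 (95% interval -0.89 to -0.21) and -0.24, and below control 1 and 2. Mybl2, which acts with the MuvB core in S phase, was at 36.7, 36.4 and 35.5 CPM in control, 28.1, 37.1 and 30.98 in trametinib, 39.4, 38.6 and 34.4 in cediranib and 28.7, 32.9 and 37.6 in combination treated tumors. Its groups overlapped, and trametinib 1 was the lowest tumor. Its log2 fold change was -0.17 for trametinib against control and 0.044 (95% interval -0.26 to 0.35) for combination against trametinib.

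Other genes of cell division were counted in the same way. Of 59 further mitotic genes 50 were tested, with a median log2 fold change of 0.25 with trametinib, 0.025 with combination (each against control) and -0.23 for combination against trametinib. In this list Depdc1a rose with trametinib (0.79, FDR 0.0349), and Cep55, which recruits the machinery of abscission, fell with combination (-1.25, FDR 0.0485), all by edgeR with Benjamini-Hochberg adjustment. Cep55 was also the only called gene of the list, in combination against cediranib (-1.62, FDR 0.0196). The next smallest p values were those of Gas2l3 and Cdkn3 for trametinib against control, with log2 fold changes of 0.85 and 0.69, and of Ckap2l and Iqgap3 for combination against control, with -0.82 and 0.37. Of 13 condensin and cohesin genes, 15 tested subunits and partners of the anaphase-promoting complex and 17 tested DREAM and E2F genes, 0 passed by edgeR in trametinib or combination against control. Before adjustment, at a p under 0.05, there were 3 condensin and cohesin genes in each comparison, all higher, 4 anaphase-promoting complex genes, higher with trametinib, and 1, lower with combination, and 3 higher and 2 lower DREAM and E2F genes with trametinib and 1 higher and 3 lower with combination. Of all genes tested, 10.2% were higher and 10.5% lower at this p with trametinib, and 13.4% higher and 13.8% lower with combination. The fits of DESeq2 and limma-voom covered all genes tested, but their results for these lists are not given here. The smallest p values for trametinib were those of the condensin subunits Ncapg2, Ncaph and Ncapd2 (0.46, 0.34 and 0.27), of Fzr1, Anapc16 and Anapc13 (0.40, 0.43 and 0.61) and of Rbl2, E2f1 and Lin37 (0.38, 0.41 and 0.57). For combination they were those of the same 3 condensin subunits (0.46, 0.42 and 0.35), of Cdc16, Anapc16 and Anapc1 (-0.28, 0.26 and -0.17) and of Rbl2, Lin9 and E2f4 (0.38, -0.38 and -0.41). Median log2 fold changes for trametinib against control were 0.048, 0.20 and 0.11 in these 3 lists and, for combination against trametinib, -0.0049, -0.22 and -0.026.

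DNA replication genes, which mark S phase, had medians of 0.15 with trametinib, 0.091 with combination (each against control) and -0.044 for combination against trametinib over 41 tested genes of 44. Of these Rrm2, the small subunit of ribonucleotide reductase, rose with combination against control (0.64, SE 0.15, FDR 0.0248) and against cediranib (0.60, FDR 0.0375). The other genes with the smallest p in combination against control were Chaf1a and Pola1, at 0.51 and 0.37, and those in trametinib against control were Rfc4, Rrm2 and Prim1, at 0.33, 0.33 and 0.33. Of the CDK inhibitors and G2/M brakes, 12 of 15 were tested. Cdkn2c, which encodes the inhibitor p18 of the kinases Cdk4 and Cdk6, rose with trametinib (1.24, FDR 0.00992) and with combination (1.24, FDR 0.00978) against control. It was at 50.1, 49.1 and 36.8 CPM in control, 93.6, 89.8 and 139 in trametinib, 46.4, 38.6 and 65.6 in cediranib and 93.5, 92.1 and 136 in combination treated tumors. All 6 tumors that received trametinib lay above the 6 that did not. Wee1, the kinase that holds Cdk1 inactive, rose with combination against control (1.09, FDR 0.0208), and was at 17.3, 9.83 and 9.496 CPM in control, 15.3, 15.9 and 12.4 in trametinib, 14.2, 13.7 and 13.2 in cediranib and 26.1, 19.2 and 33.2 in combination treated tumors. The next smallest p values were those of Btg2 and Cdkn1b with trametinib, at -0.79 and 0.65, and of Gadd45a with combination, at 0.83. Against cediranib, Cdkn2c, Wee1 and Gadd45a rose with combination, at 1.09, 0.93 and 1.11. Cyclin D1, encoded by the MAPK output gene Ccnd1, fell with trametinib (log2 fold change -2.29) and with combination (-1.6007) against control, with FDRs of 1.83e-05 and 0.00037 (edgeR, Benjamini-Hochberg). Ccnd1 was at 89.5, 114 and 93.5 CPM in control, 22.1, 22.1 and 16.4 in trametinib, 123, 94.8 and 118 in cediranib and 32.9, 29.7 and 35.2 in combination treated tumors. The 6 tumors given trametinib, alone or combined, lay below the other 6.

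The MAPK output genes were tested in the same libraries. With trametinib against control 12 of 17 tested fell, with a median log2 fold change of -2.29, and 10 were called: Egr1 (-4.49), Dusp4 (-3.95), Dusp6 (-3.70), Etv5 (-3.67), Dusp5 (-3.38), Spry4 (-3.14), Etv4 (-2.84), Ccnd1, Phlda1 (-2.19) and Spred3 (-1.95). With combination against control 11 fell, with a median of -1.51, and 9 were called (Egr1, Dusp4, Dusp5, Dusp6, Spry4, Etv5, Fosl1, Phlda1 and Ccnd1). Against trametinib Dusp6 (1.79) and Etv5 (1.58) were called higher with combination, and against cediranib 10 were called lower (Egr1, Dusp4, Dusp5, Dusp6, Spry4, Etv4, Etv5, Fosl1, Phlda1 and Ccnd1).

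Transcripts of other cell types in the whole tumor lysates differed between groups. Of 12 endothelial markers, all but Emcn, Cldn5 and Egfl7 had counts in all 12 tumors, and Emcn and Egfl7 did not pass the filter. Endothelial transcripts of SVR and of the host's vessels cannot be told apart in these lysates, so the label of the line was not checked by them. The summed CPM of these 12 genes was 212 to 448 in control, 53.1 to 114 in trametinib treated, 127 to 337 in cediranib treated and 36.0 to 88.3 in combination treated tumors, and 5 of 10 tested fell with trametinib (Pecam1, Cdh5, Flt1, Tie1 and Vwf, median of the list -1.86) and 6 with combination against control (these 5 and Kdr, median -2.02), by edgeR at an FDR under 0.05. Against cediranib, Pecam1, Cdh5 and Tie1 fell with combination. For 18 epidermis genes it was 24.6 to 782, 4.10 to 10.8, 45.7 to 4968 and 4442 to 6684 CPM in the same order, with Krt1, Dsg3, Pkp1, Ivl and Flg at 0 in all 3 trametinib treated tumors. Ivl fell with trametinib against control, Lor and Dsp had the next smallest p and did not pass, and 6 of 17 tested rose with combination against control (Krt15, Krt71, Krt25, Trp63, Lor and Sfn). Against trametinib, Krt15, Dsp, Lor, Ivl and Sfn rose with combination. No fold is given for this list because of the genes at 0. For 9 fibroblast genes it was 2052 to 21044, 8102 to 36902, 1593 to 6752 and 2646 to 5333 CPM, and for 8 macrophage genes 389.5 to 684, 302 to 432, 285 to 442 and 177 to 316 CPM. For 7 erythroid genes it was 74.0 to 1798, 54.8 to 91.0, 54.0 to 569.9 and 15.1 to 16.3 CPM. With trametinib against control, Pdgfra of the fibroblast list rose (1.19), with Dcn and Lum next by p, and 0 of 8 macrophage and 0 of 5 erythroid genes tested passed by edgeR, with 2 and 5 at an unadjusted p under 0.05, all lower. The smallest p values in these lists were those of Mrc1, Fcgr1 and Itgam and of Hba-a2, Alas2 and Hbb-bs. With combination against control, Pdgfrb fell (-1.67), and Col1a2 and Fap had the next smallest p of the fibroblast list. Also lower past the FDR were Csf1r, Cd68, Mrc1 and Fcgr1 of the macrophage list and Hba-a1, Hba-a2, Hbb-bs and Hbb-bt of the erythroid list. The medians of the fibroblast, macrophage and erythroid lists were 1.14, -0.33 and -3.16 with trametinib and -1.02, -0.95 and -5.37 with combination. Against trametinib, Cd68 fell with combination. For skeletal muscle and adipocyte genes 0 of 8 and 0 of 3 tested passed by edgeR in either comparison, with 5 muscle genes lower at an unadjusted p under 0.05 with combination and 0 in the others. The smallest p values were those of Myh2, Myh1 and Mylpf with trametinib and of Myh4, Ckm and Actn3 with combination among muscle genes, and Plin1, Fabp4 and Pparg were the adipocyte genes tested. For 6 adipocyte genes the summed CPM stayed between 3.54 and 17.5 CPM over the 12 tumors, and for 7 T cell genes between 0.0852 and 1.72 CPM, with Cd3g at 0 in all 12. The part of these cells in the members' levels was not tested. With control 2 and trametinib 2, the tumors richest in muscle RNA, left out, the median log2 fold change of the members was 0.35 for trametinib against control and -0.34 for combination against trametinib, and 0 members passed in these comparisons or in combination against control.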

How the data were processed

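RNA of 12 whole tumors, 3 in each treatment group as the labels give them, was captured with an exome panel and sequenced. The study chose this method because degradation of the tumor RNA was relatively frequent. No source used here gives the RNA quality of each tumor, and its part in the levels was not tested. The deposited counts per gene were made by the authors with STAR 2.7.1a on GRCm38 and featureCounts 1.6.0. No source used here states whether strand was used, or how multi-mapping reads were treated. Counts were filtered with filterByExpr (minimum count 10, minimum total 15), leaving 12897 genes, scaled with TMM factors and fitted over all 12 libraries with edgeR 4.0.16 (R 4.3.3) by the quasi-likelihood test. P values of 6 comparisons were adjusted over all 12897 genes by Benjamini-Hochberg. Genes passed at an FDR under 0.05 and were called if they also changed by 1.5 or more on the log2 scale. Standard errors came from the fitted weights and the moderated dispersion, and 95% intervals from the t distribution with the fit's degrees of freedom. Libraries held 9478865 to 11666094 counts, and replicates of a group differed by more than counting noise. Tumors are taken as separate mice. The p values set a difference between groups against the spread between tumors, pooled over all groups and moderated across genes. Overlapping exons were read from GENCODE M21 and promoters from RefSeq on GRCm38.p6. The procedure was tested on simulated data. The alternatives were DESeq2 size factors, library totals, no filter, only the groups compared, DESeq2 1.42.0, limma-voom (limma 3.58.1), a replicate block and leaving out each tumor. Leaving out the libraries rich in muscle RNA, and the members with overlapping exons, was added after seeing the data. The members and lists were chosen with earlier results of these data known. Values in every tumor are given for 16 members and for those among the 3 smallest p values of a comparison. Of the other lists the counts, the median, the 3 genes with the smallest p in trametinib and in combination against control and any called gene are given.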

Additional observations from a re-analysis of the deposited data

How the results depend on the processing

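For trametinib against control, 1 member passed without the filter, with DESeq2 and with only the groups compared, and over the fits that leave out a tumor 0 to 1 passed and 0 to 1 were called, the exception being Nusap1 without control 2. The median was 0.35 without the muscle-rich libraries. For cediranib against control, 1 member (Ube2c) passed without the filter. For combination against control, 0 passed with library totals and without the muscle-rich libraries, 2 passed without the filter (Ccnb2 and Ube2c), and 0 to 1 passed with a tumor left out. For combination against trametinib, 2 passed without the filter and 4 by DESeq2. Of all genes, 1690, 489, 2390 and 1411 of 29102 passed without the filter in these 4 comparisons, in this order. With only the groups compared, 639 of 11983 genes passed in trametinib against control. Library totals gave medians of 0.048 for combination against control, -0.18 against trametinib, -0.0019 against cediranib and -0.20 for the interaction, and moved the median of all genes to 0.13, 0.12, 0.12 and 0.11. Relative to those the members' medians were -0.082, -0.30, -0.12 and -0.32, and the cause of the shift was not tested. The median of combination against control thus changed sign with library totals, and that of cediranib against control, near 0, ran from -0.067 to 0.075 with a tumor left out. The log2 fold change kept its sign in every setting for 27 of 37 members in trametinib against control, 31 in combination against trametinib and 16 in combination against control. The replicate block changed no count of passing members, with 1 in combination against control and a median of -0.31 for combination against trametinib. In the main fit the replicate numbers were not used to pair the samples. Of 18 pairs with the same number, 3 had a correlation over 0.1 (-0.22 to 0.36), and 4 of 12 libraries correlated best with their own number. With 3 tumors a group these correlations cannot decide whether samples of 1 number shared a batch. With 3 tumors a group, the values of Aurka, Birc5, Cenpa and Nusap1 rest on few counts. How small a difference of these genes could have been detected was not tested. Without the members with overlapping exons, 26 were tested and the medians were 0.17 for trametinib against control and -0.28 for combination against trametinib. At an unadjusted p under 0.05 (edgeR) there were 3 and 6 of these 26, beside 8 and 13 of all 37. Of the 8 for trametinib against control, Prc1, Nusap1, Kif20a, Ccna2 and Plk1 have overlapping exons.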
